A study of Mus musculus with 10 samples.

Results

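Dopamine acts on 5 receptors, and the genes described here are those receptors (Drd1 to Drd5), the signalling protein DARPP-32 (Ppp1r1b) and the 2 monoamine oxidases that break dopamine down (Maoa and Maob). They were chosen by symbol, and all 8 were found among the 49315 genes of the count table. Their RNA was measured by poly(A) RNA sequencing of the granule cell layer, dissected from the dorsal dentate gyrus, a region of the hippocampus, in male C57 BL/6 mice. Self-administration was of cocaine for 5 mice and of saline for 5, each with 1 library. Strain, sex and tissue were shared by both groups, and age, dose, training schedule and time of dissection are given in none of the labels used here. The tissue is a dissected layer and not sorted cells, so a library can hold RNA of other cells in or beside that layer.

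The receptors fall into a D1-like pair, Drd1 and Drd5, which couple to stimulatory G proteins and raise cyclic AMP, and a D2-like group, Drd2, Drd3 and Drd4, which couple to inhibitory G proteins and lower it. Cyclic AMP activates protein kinase A, which phosphorylates DARPP-32 and turns it into an inhibitor of a protein phosphatase. Monoamine oxidases A and B sit on the outer mitochondrial membrane and deaminate dopamine, and MAO-B is known for its presence in astrocytes. Cocaine blocks the dopamine transporter, so dopamine stays longer outside the cell. In the dentate gyrus, D1-like receptors are known from granule cells, and Drd2 from the mossy cells of the hilus beneath them.

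Total counts ran from 34991548 to 46481533 per library. The granule cell marker Prox1 stood at 315 ± 85.5 CPM in the cocaine libraries and at 361 ± 44.5 CPM in the saline libraries (SD, n = 5), where CPM are counts scaled to a library total of 1000000. All 9 granule cell markers passed the low-count filter. Markers of other cells were present too. The 8 choroid plexus markers summed to between 61.5 and 3609 CPM with cocaine and between 94.2 and 1394 CPM with saline, with cocaine replicates 5 and 1 and saline replicate 3 highest. Sums add CPM, so the marker with the highest CPM weighs most in its list. With cocaine the highest means were 1328 CPM for Ttr (choroid plexus), 101 CPM for Calb2 (mossy cells) and 37.6 CPM for Penk (striatal projection neurons). Cocaine replicate 5 lay apart from the other libraries, at −54.2 on a first principal component holding 24.6% of the variance. In bulk tissue, fewer cells of a type and less RNA per cell cannot be told apart. Of the other lists, 6 of 6 oligodendrocyte and 4 of 4 ependyma markers had a fold change above 1, with 6 and 1 at an unadjusted p under 0.05 in edgeR. The counts above 1 were 6 of 6 for striatal projection neurons, 6 of 7 for CA2 and CA3, 2 of 4 for CA1, 3 of 7 for interneurons, 2 of 5 for microglia and 2 of 4 for meningeal fibroblasts. At the same unadjusted p, 1 striatal and 1 interneuron marker were higher, and 1 astrocyte and 1 mossy cell marker were lower.

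None of the 7 members that could be tested differed between the groups in edgeR after adjustment over all 17080 genes tested. The background was the same, with 0 genes called, 0% of those tested. The member with the smallest p was Drd1, a D1-like receptor, at 8.38 ± 0.870 CPM in the cocaine group and 10.6 ± 2.33 CPM in the saline group (SD, n = 5). With DESeq2 0.054% of genes were called, with limma voom 0.556% and in edgeR without cocaine replicate 5 0.747%, and in each of these 0 members were called. Without adjustment 1 member, Drd1, was lower and 0 were higher at p under 0.05, where 3.33% of all genes tested were lower and 5.58% higher. Of the 7 members, 2 had a fold change above 1 and 5 below, with a median log2 fold change of −0.08. Over all genes tested 53.6% had a fold change above 1 and 46.4% below, with a median of 0.02. In 0 of the 7 did the libraries of the groups stand fully apart, against 1.38% of all genes tested.

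Per length of exon, the receptors fell into a measurable group and a group close to 0. Ppp1r1b was highest at 17.3 ± 3.72 CPM per kilobase (SD over all 10 libraries), above 82.4% of the genes tested. Maob followed at 8.36 ± 1.96, Maoa at 7.99 ± 0.991 and Drd5 at 6.26 ± 0.659 CPM per kilobase. Drd2 stood at 3.25 ± 0.614 and Drd1 at 2.62 ± 0.563 CPM per kilobase. Drd4 and Drd3 lay far below, at 0.0976 ± 0.0495 and 0.0813 ± 0.0696. The widest step between neighbours was from Drd1 to Drd4, a ratio of the means of 26.9. Ppp1r1b was above Maob, Drd5 above Drd2 and Drd1 above Drd4 in 10 of 10 libraries. Maoa was above Drd5 in 9 libraries and Drd2 above Drd1 in 9, with ranges that overlapped. Maob was above Maoa in 4 libraries and Drd4 above Drd3 in 5, so by the length of all exons these neighbours did not differ beyond their spread. By the length of the longest transcript the mean of Maob was 9.67 CPM per kilobase and that of Maoa 7.99. The order of the oxidases thus rests on the length used. The level of Ppp1r1b rests on it too, since its longest transcript of 2001 bases in place of the 2928 bases of all exons gave 25.3 CPM per kilobase.

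**Figure D1:**
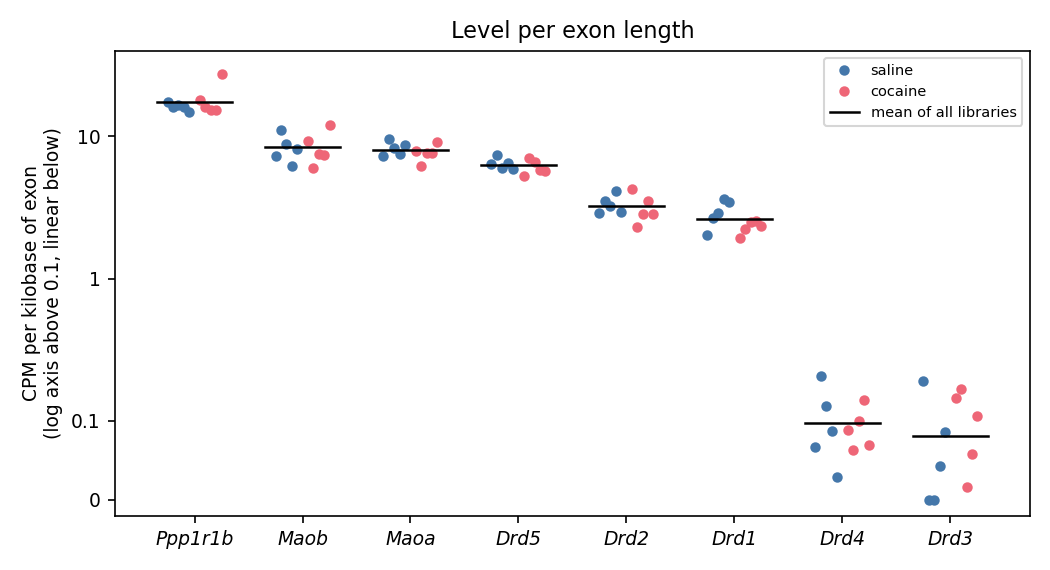
Level of each gene in every library, in CPM per kilobase of exon, on an axis that is logarithmic above 0.1 and linear below. Points are libraries of the saline (blue) and cocaine (red) groups and black lines are means over all 10; Drd4 and Drd3 sit near 0.1 while the other 6 genes lie between 1.94 and 27.5.

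Start-site windows from RefSeq (GRCm38.p6, 250 bases before to 50 after the start) were found for 6 of the 8 genes, namely Drd1 to Drd5 and Maoa. Cytosine followed by guanine (CG), a pair at which mammalian DNA can be methylated, was counted in them because DNA methylation is named in the title of the series. Methylation itself was not analysed here. The 4 stretches printed here belong to the 3 receptors with the highest levels and to the receptor with the lowest. Each is read 5′ to 3′ and cut before the first annotated exon base of its gene within the window, with every CG pair in capitals. In GENCODE the Drd3 gene starts at 43754026, upstream of the stretch shown, so that stretch lies within the gene, between annotated exons.
Drd5, chr5:38319259-38319366, plus strand: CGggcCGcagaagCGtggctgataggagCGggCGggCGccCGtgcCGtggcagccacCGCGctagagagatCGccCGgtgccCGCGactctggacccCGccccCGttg
Drd2, chr9:49340153-49340402, plus strand: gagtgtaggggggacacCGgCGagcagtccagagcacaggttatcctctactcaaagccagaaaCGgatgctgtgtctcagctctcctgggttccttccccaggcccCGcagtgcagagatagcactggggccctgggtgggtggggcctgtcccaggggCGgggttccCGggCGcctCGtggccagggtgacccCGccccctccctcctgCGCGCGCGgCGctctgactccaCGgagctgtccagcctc
Drd1, chr13:54055706-54055908, minus strand: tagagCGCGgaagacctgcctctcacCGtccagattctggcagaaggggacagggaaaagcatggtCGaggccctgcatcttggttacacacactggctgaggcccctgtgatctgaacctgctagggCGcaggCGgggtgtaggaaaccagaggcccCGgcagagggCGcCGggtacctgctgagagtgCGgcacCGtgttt
Drd3, chr16:43761971-43762207, plus strand: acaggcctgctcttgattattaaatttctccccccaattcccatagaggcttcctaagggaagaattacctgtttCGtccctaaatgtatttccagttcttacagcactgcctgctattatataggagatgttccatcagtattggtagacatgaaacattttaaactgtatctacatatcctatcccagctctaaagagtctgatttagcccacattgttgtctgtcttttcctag
The full window of Drd5 held 38 CG pairs, more than 95% of the 32851 windows in the table. The window of Drd2 and the upstream window of Drd1 each held 23, more than 78.5% of windows, and a downstream start of Drd1 had 6. Drd4 had 15 and Maoa had 14, while Drd3 had 2, which is more than 14.1% of windows and below the median of 7. CG number did not follow the levels throughout, since Drd4 had 15 and a level near 0. The letters GGGCGG, a GC box on either strand, were in 35.7% of all windows and in those of Drd1, Drd2, Drd4, Drd5 and Maoa, but not in the 300 bases of Drd3. The letters TGACG, the half-site of a cyclic AMP response element on either strand, were in 20.8% of all windows and in that of Maoa alone among these genes. The search for both sets of letters describes these windows and shows no binding.

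Drd1 lies on chromosome 13 from 54051183 to 54055705 on the minus strand (mm10, GENCODE M21), with 0 bases of its exons shared with another gene. Its level with cocaine was 7.05, 8.11, 9.13, 9.16 and 8.46 CPM in replicates 1 to 5. With saline it was 7.35, 9.65, 10.5, 13.2 and 12.5 CPM. So 4 of the 5 saline libraries lay above every cocaine library, and saline replicate 1 lay low among the cocaine values. The log2 fold change was −0.35 (SE 0.15), a fold change of 0.787 with a 95% interval from 0.627 to 0.988. In edgeR the unadjusted p was 0.0403 and the adjusted p 0.547. Without saline replicate 1 the log2 fold change was −0.45, with an unadjusted p of 0.00414 and an adjusted p of 0.892. Without saline replicate 4 it was −0.26, with an unadjusted p of 0.116. Granule cell markers summed to between 1166 and 2011 CPM with cocaine and between 1463 and 2098 CPM with saline, with a fold change above 1 in 1 of 9 and 0 called. With group means taken off, log2 Drd1 had an r of 0.30 with the granule cell sum, 0.51 with the striatal sum, −0.45 with the choroid plexus sum and 0.36 with the CA1 sum over 10 libraries. Without the 2 libraries farthest from the median of each sum, these were 0.49, 0.54, −0.24 and 0.78. The CA1 markers summed to between 90.9 and 140 CPM with cocaine and between 74.5 and 173 CPM with saline, highest in saline replicates 4 and 5, where Drd1 was highest too. The part of these cells in the level of Drd1 was not tested.

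Drd5, the other D1-like receptor, is a gene of 1 exon on chromosome 5 from 38319367 to 38322518, on the plus strand. With cocaine it stood at 16.6, 22.4, 20.7, 18.2 and 18.0 CPM in replicates 1 to 5, and with saline at 20.2, 23.3, 18.8, 20.6 and 18.4 CPM. The groups overlapped, and among the 7 members tested it had the smallest relative spread over saline libraries but for Ppp1r1b, at 9.39% of its mean. Its log2 fold change was −0.08 (SE 0.10), a fold change of 0.947 with a 95% interval from 0.814 to 1.10 and an adjusted p of 0.839 in edgeR. An antisense gene, Gm26560, covers 48.6% of the exon bases of Drd5 and had 6 to 27 counts per library, against 668 to 944 for Drd5. The strand setting of the counting is given in none of the sources used here, so reads of the 2 genes may not be told apart. With group means taken off, log2 Drd5 had an r of 0.81 with the summed interneuron markers, which ran from 530 to 673 CPM with cocaine and from 589 to 673 CPM with saline, and of −0.71 with the summed oligodendrocyte markers (10 libraries). Without the 2 libraries farthest from the median of each sum, these were 0.62 and −0.57. The meningeal fibroblast sum had −0.71, or −0.73 without the 2 farthest, and the granule cell sum 0.59, or 0.39. The mossy cell sum had −0.17, or −0.85 without the 2 farthest. The part of these cells in the level of Drd5 was not tested.

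Drd2, the main D2-like receptor, lies on chromosome 9 from 49340627 to 49408177 on the plus strand. With cocaine it stood at 10.9, 5.86, 7.28, 8.96 and 7.22 CPM in replicates 1 to 5, and with saline at 7.35, 8.91, 8.28, 10.5 and 7.54 CPM. Cocaine libraries were both the highest and the lowest of the 10, with replicate 1 at the top and replicate 2 at the bottom. The log2 fold change was −0.08 (SE 0.17), a fold change of 0.943 with a 95% interval from 0.736 to 1.21 and an adjusted p of 0.902 in edgeR. The mossy cell markers summed to between 107 and 197 CPM with cocaine and between 120 and 234 CPM with saline, with a fold change above 1 in 3 of the 5. Calb2 had a log2 fold change of 0.25 (unadjusted p 0.475 in edgeR), and Ajap1, the one mossy cell marker with an unadjusted p under 0.05 and named for it, had −0.21 (unadjusted p 0.0462, adjusted p 0.556). After each group's mean was taken off, log2 Drd2 and log2 of that sum had a Pearson r of 0.54 over 10 libraries and 0.61 without the 2 farthest in that sum, whose points share library and depth. The astrocyte sum had a larger r of the opposite sign with Drd2, −0.64, or −0.76 without the 2 farthest, and the interneuron sum had −0.57, or 0.04 without the 2 farthest.

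Drd4, a D2-like receptor on chromosome 7 from 141292006 to 141296464, was near the limit of detection. It had 12, 9, 12, 19 and 9 counts with cocaine and 9, 28, 20, 12 and 4 with saline, so both ends of the range lay in the saline group. Its fold change of 0.892 had a 95% interval from 0.444 to 1.79, and its adjusted p was 0.938 in edgeR. A fold change within that interval could not be told from none in these libraries.

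Drd3, a D2-like receptor known from the islands of Calleja and the ventral striatum, lies on chromosome 16 from 43754026 to 43822932. It had 10, 12, 1, 4 and 7 counts in the cocaine libraries and 13, 0, 0, 3 and 6 in the saline libraries. It did not pass the low-count filter. Its mean was 0.169 CPM in the cocaine and 0.110 CPM in the saline group, a difference of 0.0594 CPM (two-sided exact permutation p = 0.460; the smallest possible is 0.00794). A count of 0 in saline replicates 2 and 3 allows up to 0.0744 and 0.0645 CPM, counting error only.

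The balance between receptors was compared as a ratio of counts within each library, which does not depend on scaling between libraries. The ratio of Drd1 to Drd5 counts ran from 0.363 to 0.504 with cocaine and from 0.364 to 0.679 with saline, with medians of 0.441 and 0.560. On the log2 scale cocaine minus saline was −0.24 (SE 0.19), and the two-sided exact permutation p was 0.262, or 0.421 after Benjamini-Hochberg adjustment over 3 ratios. The ratio of Drd1 to Drd2 counts ran from 0.649 to 1.38 with cocaine and from 1.00 to 1.66 with saline, with medians of 1.17 and 1.25. Here cocaine minus saline was −0.22 (SE 0.23) on the log2 scale, and the exact p 0.421 before and after adjustment. Cocaine replicate 1, with the highest Drd2 and the lowest Drd1 of all libraries, gave the lowest ratio, and without it the difference was −0.040.

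**Figure D2:**
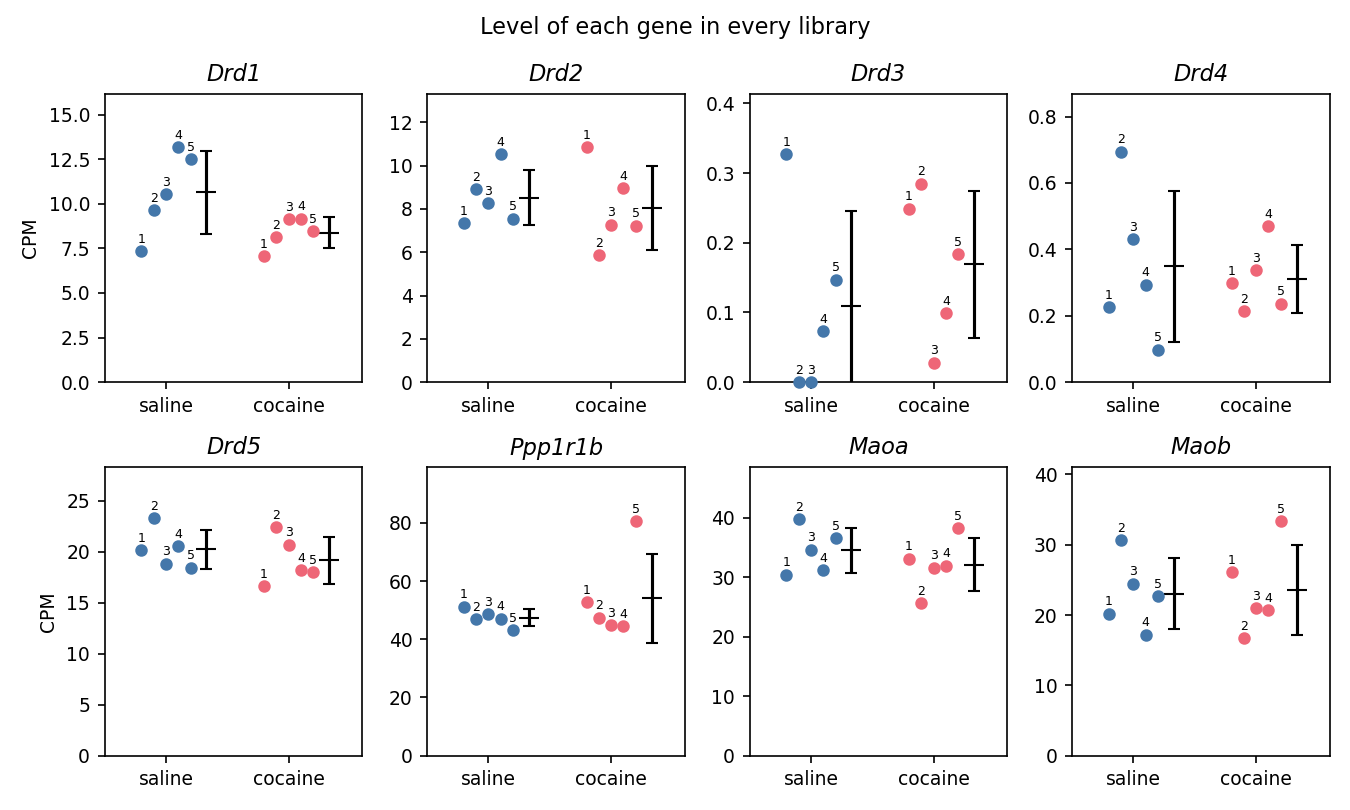
Level of the 8 genes in CPM, 1 panel per gene, with the saline (blue) and cocaine (red) libraries as points marked by replicate number and the mean ± SD (n = 5) in black, cut off at 0. In Drd1 saline replicates 2 to 5 lie above all cocaine libraries, and in Ppp1r1b cocaine replicate 5 stands apart at 80.6 CPM.

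Ppp1r1b codes for DARPP-32, which is known as a hub of dopamine signalling in the striatum. It lies on chromosome 11 from 98348404 to 98357796. With cocaine it stood at 52.8, 47.4, 44.9, 44.6 and 80.6 CPM in replicates 1 to 5, and with saline at 51.2, 46.9, 48.6, 47.1 and 43.1 CPM. All libraries but cocaine replicate 5 lay between 43.1 and 52.8 CPM. The log2 fold change was 0.19 (SE 0.15), a fold change of 1.14 with a 95% interval from 0.917 to 1.42 and an adjusted p of 0.704 in edgeR. Without cocaine replicate 5 the log2 fold change was 0.000972 (SE 0.07). That library also had the highest sum of choroid plexus markers, 3609 CPM, and of ependyma markers, 75.6 CPM, and the lowest sum of granule cell markers, 1166 CPM. With group means taken off, log2 Ppp1r1b had an r of 0.73 with the choroid plexus sum, which was mostly Ttr, over the 10 libraries. With the ependyma sum it was 0.79. Without the 2 libraries farthest from the median of each sum, these were 0.75 and 0.71. For the choroid plexus sum those were cocaine replicate 4 and saline replicate 5, so cocaine replicate 5 stayed in. For the ependyma sum they were cocaine replicate 5 and saline replicate 3. Next in size of r were the microglia sum at 0.69, the granule cell sum at −0.67 and the pericyte and smooth muscle sum at 0.66. Without the 2 farthest these were −0.18, −0.45 and −0.08. The choroid plexus markers had a fold change above 1 in 8 of 8, and none was at 0 in every library. The part of any of these cells in the level of Ppp1r1b was not tested. Without the 3 libraries richest in choroid plexus markers, an alternative chosen after the values were seen, the log2 fold change of Ppp1r1b was −0.045. An antisense gene covers 15.7% of the exon bases of Ppp1r1b and had at most 3 counts per library.

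Maoa and Maob lie next to each other on the X chromosome, tail to tail, Maoa from 16619698 to 16687818 on the plus strand and Maob from 16709282 to 16817366 on the minus strand. Maoa stood at 33.1, 25.6, 31.6, 31.9 and 38.2 CPM in cocaine replicates 1 to 5 and at 30.4, 39.7, 34.6, 31.2 and 36.5 CPM in saline replicates 1 to 5. The groups overlapped, with cocaine replicate 2 lowest and saline replicate 2 highest. The log2 fold change of Maoa was −0.10 (SE 0.11), a fold change of 0.930 with a 95% interval from 0.791 to 1.09 and an adjusted p of 0.786 in edgeR.

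Maob stood at 26.1, 16.7, 21.0, 20.7 and 33.4 CPM with cocaine and at 20.2, 30.7, 24.5, 17.2 and 22.7 CPM with saline. Both extremes lay in the cocaine group, replicates 2 and 5. The log2 fold change of Maob was 0.03 (SE 0.18), a fold change of 1.02 with a 95% interval from 0.776 to 1.35 and an adjusted p of 0.971 in edgeR. Its direction was not stable, at −0.13 without cocaine replicate 5.

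**Figure D3:**
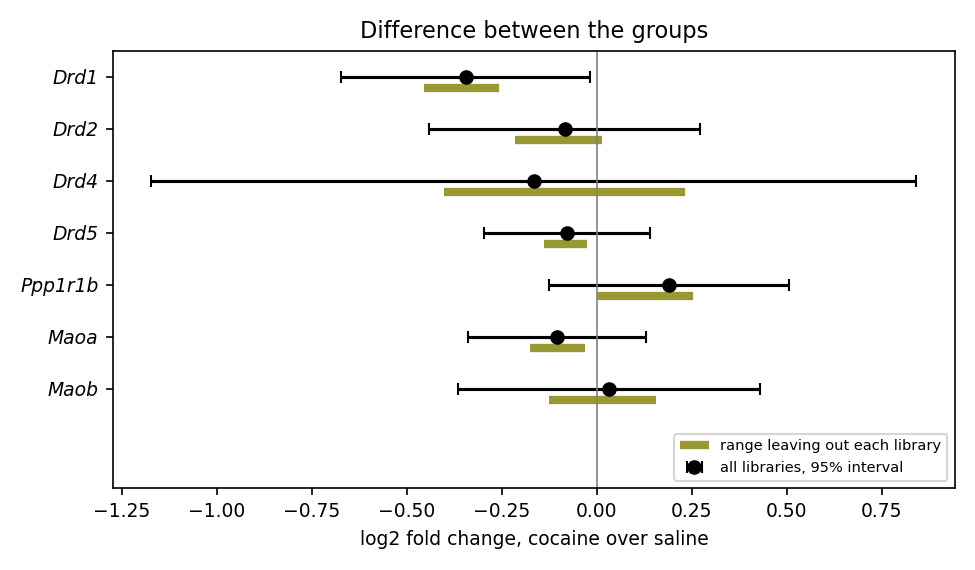
Log2 fold change of cocaine over saline for the 7 genes tested, with points and black bars for the edgeR estimate from all libraries with its 95% interval and olive bars for the range when each library is left out. The interval of Drd1, from −0.67 to −0.02, lies below 0 and the other 6 span it.

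The oxidases varied together from library to library. After each group's mean was taken off, their log2 levels had a Pearson r of 0.93 and a Spearman rho of 0.94 over 10 libraries, and without the 2 libraries farthest from the median of Maoa r was 0.86. This was the highest r among the 21 pairs of the 7 genes tested, followed by Ppp1r1b with Maob at 0.62, or 0.26 over 8 libraries without the 2 farthest in Ppp1r1b, and it is a description of libraries that share depth and dissection. Drd1 had an r between −0.25 and 0.12 with each of the other 6. The ratio of Maob to Maoa counts ran from 0.649 to 0.874 with cocaine and from 0.552 to 0.773 with saline, and both medians were 0.663. Cocaine minus saline was 0.13 (SE 0.12) on the log2 scale, and the two-sided exact permutation p was 0.325, or 0.421 when adjusted over the 3 ratios.

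Markers of vessels, and of some other cells, moved with the oxidases. Log2 Maoa had an r of 0.97 with the sum of the 5 endothelial markers and 0.95 with the sum of the 5 pericyte and smooth muscle markers, and log2 Maob had 0.91 and 0.89. Without the 2 libraries farthest from the median of each sum, these were 0.92, 0.90, 0.83 and 0.77. Against the granule cell marker sum the r was −0.76 for Maoa and −0.88 for Maob, and −0.46 and −0.75 without the 2 farthest. The mossy cell sum had 0.73 with Maoa and 0.68 with Maob, or 0.75 and 0.76 without the 2 farthest. The oligodendrocyte sum had 0.77 and 0.70, or 0.39 and 0.34 without the 2 farthest. The endothelial markers summed to between 137 and 222 CPM with cocaine and between 159 and 204 CPM with saline, none was at 0 in every library, and 1 of 5 had a fold change above 1. The interneuron sum had −0.72 with Maoa and −0.62 with Maob, or −0.58 and −0.44 without the 2 farthest. The microglia sum had 0.67 and 0.59, or 0.22 and −0.000438 without the 2 farthest. The astrocyte sum had 0.13 with Maoa and 0.28 with Maob, or −0.15 and −0.17 without the 2 farthest. The astrocyte markers summed to between 3141 and 3484 CPM with cocaine and between 3453 and 3965 CPM with saline, with a fold change above 1 in 0 of 7. Slc1a2 weighed most in that sum, with means of 1632 CPM with cocaine and 2000 CPM with saline. Its log2 fold change was −0.29, with an adjusted p of 0.504 in edgeR. The part of these cells in the levels of the oxidases was not tested.

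**Figure D4:**
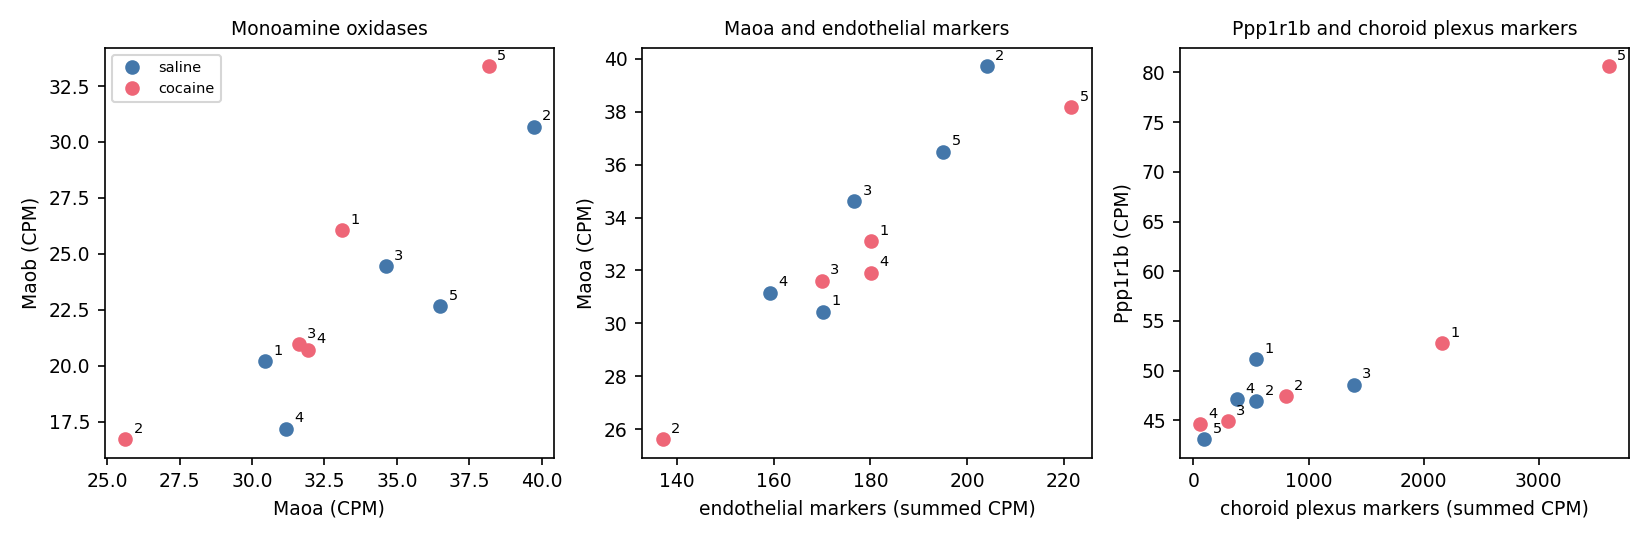
Each point is a library, blue for saline and red for cocaine, marked with its replicate number. Left, Maob against Maoa in CPM, which are high and low in the same libraries (r of 0.93 with group means taken off); middle, Maoa in CPM against the summed CPM of 5 endothelial markers; right, Ppp1r1b in CPM against the summed CPM of 8 choroid plexus markers, where cocaine replicate 5 is highest on both axes.

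The genes most like each member were taken by the highest Pearson r of log2 CPM with group means taken off, over 10 libraries and 13235 candidate genes. With so many candidates and 10 points, high values are found for every gene. For Maob they were Fads1, a fatty acid desaturase, Serpine2, a protease inhibitor, and Gjb6, an astrocyte connexin, with r of 0.98, 0.97 and 0.97. For Maoa they were Gnas, the stimulatory G protein subunit, Cadm4 and Endou, each with 0.96. For Ppp1r1b they were Gnb5, a G protein beta subunit, Polr2d and Creb3, with 0.98, 0.97 and 0.97. For Drd1 they were Dus2, Fance and S1pr2, a sphingosine phosphate receptor, with 0.94, 0.93 and 0.91. For Drd2 they were Zfp512, Slc30a10, a manganese transporter, and Slc22a15, with 0.98, 0.97 and 0.96. For Drd5 they were Rilpl1, Daxx and Kcng2, a potassium channel subunit, with 0.94, 0.93 and 0.92. For Drd4, with few counts, they were Ptk7, Zswim3 and Nod1, with 0.93, 0.92 and 0.92.

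Around these genes, 65 others of the dopamine pathway were listed in 6 groups, and 64 could be tested. In edgeR 0 passed after adjustment over all genes, with a smallest adjusted p of 0.516. Without adjustment 1 was higher and 4 were lower at p under 0.05, beside 5.58% and 3.33% of all genes tested. A fold change above 1 was found for 22 and below 1 for 42, with a median log2 fold change of −0.05 beside 0.02 over all genes. With upper-quartile factors the split was 29 above and 35 below. Without cocaine replicate 5, 0 of 65 were higher and 12 lower at p under 0.05, beside 1532 higher and 857 lower of 17278 genes. Without cocaine replicate 2, 1 of 64 was higher and 10 lower, beside 1210 higher and 1134 lower of 17312 genes. These were the most lower genes on leaving out any library. The other such fits ran from 2 lower, as without saline replicate 5 (306 lower among all genes), to 6 without saline replicate 2 (627 lower among all genes).

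The enzymes and transporters of dopamine supply were low or shared with other pathways. Th, the rate-limiting enzyme of dopamine synthesis, had 78, 12, 30, 15 and 35 counts with cocaine and 2, 20, 36, 2 and 20 with saline, a log2 fold change of 1.21 (SE 0.68) and an adjusted p of 0.623 in edgeR. Cocaine replicate 1 held 78 of those counts, and over the alternatives the log2 fold change of Th ran from 0.68 to 1.67. Slc6a3, the dopamine transporter that cocaine blocks, did not pass the low-count filter, with 0.248 ± 0.0597 CPM in cocaine and 0.226 ± 0.0881 CPM in saline libraries (SD, n = 5). Slc18a2, which loads dopamine into vesicles, stood at 2.62 ± 0.722 and 3.24 ± 0.949 CPM. Qdpr, which regenerates the cofactor of tyrosine hydroxylase, stood at 219, 143, 192, 231 and 360 CPM with cocaine and at 155, 159, 198, 160 and 183 CPM with saline. Its log2 fold change was 0.42 (SE 0.19), with an unadjusted p of 0.0438 and an adjusted p of 0.554 in edgeR, and 0.20 without cocaine replicate 5. The 6 oligodendrocyte markers had a fold change above 1 in 6 of 6 and summed to between 2174 and 5331 CPM with cocaine and between 2047 and 2999 CPM with saline, and their part in Qdpr was not tested.

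Among the other genes of breakdown and clearance 0 of 7 had an unadjusted p under 0.05. Slc22a3, a low-affinity monoamine transporter, had a log2 fold change of 0.42 and Dbh, which turns dopamine into noradrenaline, one of −0.24, with adjusted p of 0.734 and 0.746 in edgeR.

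Downstream of the receptors, the genes with the smallest p had fold changes below 1. Gnal, the olfactory-type stimulatory G protein that D1 receptors use in the striatum, ran from 218 to 269 CPM with cocaine (median 259) and from 277 to 283 CPM with saline (median 279). Every cocaine library lay below every saline library, and the log2 fold change was −0.18 (SE 0.07), with an adjusted p of 0.530 in edgeR. Gsk3b, a kinase downstream of Akt and Drd2, ran from 151 to 214 CPM with cocaine and from 220 to 243 CPM with saline, a log2 fold change of −0.24 with an adjusted p of 0.519. Prkar1a, a regulatory subunit of protein kinase A, ran from 630 to 685 CPM with cocaine and from 716 to 743 CPM with saline, a log2 fold change of −0.14 with an adjusted p of 0.526. These 3 were the genes of the 64 tested whose libraries did not overlap between the groups, beside 1.38% of all genes tested.

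Arrb1, a beta-arrestin that uncouples receptors, had 4 of 5 cocaine libraries below every saline library, with a log2 fold change of −0.22 and an adjusted p of 0.516 in edgeR. Ncs1, a calcium sensor that binds Drd2, had −0.14, and the kinase catalytic subunit Prkaca had −0.12, with adjusted p of 0.575 and 0.581. The calcineurin subunit Ppp3cb, of the phosphatase that acts on DARPP-32, had −0.14, and the G protein gamma subunit Gng7 had −0.15, with adjusted p of 0.579 and 0.724 in edgeR.

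**Figure D5:**
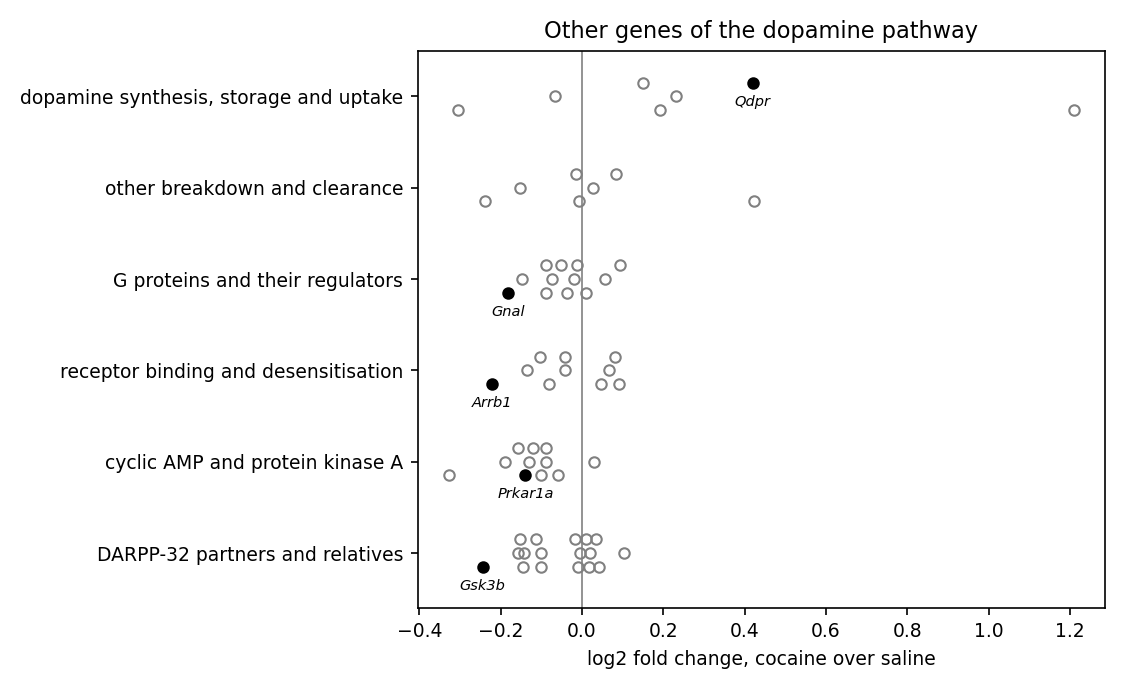
Log2 fold change of cocaine over saline for the 64 other dopamine pathway genes tested, by group. Filled, named points are the 5 genes with an unadjusted edgeR p under 0.05, of which Qdpr is above 0 and Gnal, Arrb1, Prkar1a and Gsk3b are below; 0 passed adjustment, and the rightmost point is Th.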

How the data were processed

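The authors deposited 1 table of unnormalized read counts by Ensembl gene, 10 libraries wide; the submitters' processing notes name cutadapt, STAR, Cufflinks, HTSeq and mm10, without versions or roles. The annotation release, strand setting and filters are given in none of the sources used here. GENCODE M21 gave symbols, positions and exon lengths for 48988 of 49315 genes. Per the labels, RNA was extracted from dissected tissue and poly(A) RNA went into directional libraries.

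Cocaine was compared with saline in edgeR 4.0.16 (R 4.3.3) with TMM factors (0.963 to 1.03), filterByExpr and a two-sided quasi-likelihood F test, adjusted by Benjamini-Hochberg over 17080 genes (threshold 0.05). CPM are counts over the TMM-adjusted total of the genes tested, scaled to 1000000, and correlations used log2 CPM with a prior count of 2; SE is the log2 fold change over the square root of F. Ratios used 0.5 added to each count and exact permutation. On counts simulated for 16847 genes of this comparison, 32 of 67 genes at 1.5-fold, 50 of 67 at 2-fold and 57 of 66 at 3-fold were called, with 11 unchanged genes among 150 calls.

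The members and lists were chosen with earlier results of these data known. Named are the members, the 2 pathway genes with the smallest p in each of 6 groups, Th, Slc6a3 and Slc18a2, the 3 genes most like each member among those with a mean of at least 1 CPM, leaving out predicted genes and pseudogenes, and marker sums with Prox1 and Calb2. Ajap1, Ttr, Penk, Slc1a2, genes overlapping a member's exons, and those whose groups did not overlap, were named after their values were seen. A further gene the rule names is not reported here. There were 14 marker lists, for granule, mossy, CA1, CA2 with CA3, GABAergic, striatal, astrocyte, oligodendrocyte, microglial, endothelial, mural, meningeal, choroid plexus and ependymal cells. Alternatives were DESeq2 1.42.0, limma 3.58.1 voom with sample weights, RLE and upper-quartile factors, no filter, a replicate block, leaving out each library, 1 added to each count, and longest-transcript length.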

Additional observations from a re-analysis of the deposited data

Results flagged for a closer look

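Of 22 groups of 5 values examined for a library far from the others (8 genes and 3 ratios in each group), 1 stood out. The level of Ppp1r1b in cocaine replicate 5 was 80.6 CPM, where the next cocaine library had 52.8 CPM and the lowest 44.6 CPM. The gap was 0.773 of the range, above the critical value of 0.71 for 5 values. Chance gives a gap above that critical value in about 1 of 20 independent groups. These 22 are not independent, since the ratios reuse the genes. The cause of the gap was not tested.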

How the results depend on the processing

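Counts of all genes called differed from 0 with DESeq2 (16), limma voom with sample weights (95) and without cocaine replicate 5 (129), and leaving out each library gave 0 to 129. Members called and pathway genes called stayed at 0 in every alternative run. Drd1, Drd5 and Maoa kept their direction in 17 of 17 alternatives, with adjusted p from 0.266 to 0.892 for Drd1. Its unadjusted p was under 0.05 in 9 of them. The log2 fold change turned for Drd4 (0.37 with voom, 0.23 without saline replicate 2, 0.049 without the 3 libraries richest in choroid plexus markers) and Ppp1r1b (−0.045 without those 3). For Maob it was −0.088 with voom, −0.00338 on leaving out cocaine replicate 1, −0.13 on leaving out cocaine replicate 5, −0.01 without saline replicate 1, −0.06 without saline replicate 4 and −0.22 without those 3 libraries. Drd2 had 0.013 without cocaine replicate 2, and 0.00151 when saline replicate 4 was left out. Leaving out each library gave −0.45 to −0.26 for Drd1, −0.22 to 0.01 for Drd2, −0.40 to 0.23 for Drd4, −0.14 to −0.03 for Drd5, 0.000972 to 0.25 for Ppp1r1b, −0.18 to −0.03 for Maoa and −0.13 to 0.16 for Maob. The ratio differences kept their direction, at 0.06 to 0.19 for Maob to Maoa, −0.31 to −0.04 for Drd1 to Drd2 and −0.37 to −0.14 for Drd1 to Drd5. The cause of these turns was not tested.

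The labels do not say whether equal replicate numbers pair the mice, and the main comparison was unpaired. Same-numbered libraries had correlated deviations from −0.22 to 0.03, and 0 of 10 libraries correlated best with their own number. With a replicate block the log2 fold change of Drd1 was −0.32 (adjusted p 0.751 in edgeR), and 0 genes were called. The paired ratio differences were 0.13, −0.22 and −0.24, with exact sign-flip p of 0.438, 0.312 and 0.188. Drd3 and Drd4 had at most 28 counts in any library, so counting error is large for both.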
